A study of Mus musculus with 4 samples.

Results

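The cytosolic ribosomal proteins were followed here across the livers of 4 ABCA1-TG mice, with 1 oligonucleotide array per mouse. Members were the probe sets whose only gene symbol was Rpl or Rps with a number and at most 1 closing letter (a, x or l), or Rplp with a digit. The rule found 94 probe sets for 44 genes, of 12393 genes with a probe set of a single symbol, and it used no measured value. By symbol, 24 of the 44 genes belong to the large subunit and 20 to the small subunit, and 1 of the latter, Rps4l, is annotated as a pseudogene in RefSeq. The value of a gene is that of its probe set with the highest mean log2 signal. A further 102 ribosomal protein probe sets carry several symbols, and the genes read only by those are not among the 44.

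All 4 samples form 1 group of male C57BL/6 mice aged 5 to 6 months, fed the NIH36 diet and carrying the ABCA1 transgene. Their labels also name an LDL receptor +/- background. Neither the species nor the promoter of the transgene is given in the sources used here. The wild-type controls that the design names are not analysed here, so every comparison is between the transgenic mice. ABCA1 moves cholesterol and phospholipid out of cells to apolipoprotein A-I. The titles call the samples biological replicates and are read as 1 mouse each. Where separate animals are not stated, p-values measure only the spread between these samples.

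Each cytosolic ribosome joins a small subunit, which holds the mRNA and reads its codons, to a large subunit, which forms the peptide bond. Every subunit takes 1 copy of nearly all of its proteins, and liver, which secretes large amounts of plasma protein, makes many ribosomes. Vertebrate mRNAs for these proteins begin with a C followed by an unbroken run of C and U, the terminal oligopyrimidine (TOP) tract, through which the kinase mTOR and the binding protein Larp1 set their translation together.

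The stretch of DNA around the transcription start, where such a tract would be encoded, is shown here for 8 members whose values are described below. RefSeq promoters (GRCm38.p6) matched 38 of the 44 members and gave 46 windows, since some genes have several starts. Each line runs from 40 bases before to 20 bases after the start of RefSeq's annotation, and capitals mark the longest run of C and T that touches the 10 bases on either side of the start. In Rpl4, Rps27l, Rpl39l and Rpl37a the run ends before the annotated start, outside the annotated mRNA. The capitals therefore mark letters only and do not show a TOP tract.
Rpl4, chr9:64173347-64173406, plus strand: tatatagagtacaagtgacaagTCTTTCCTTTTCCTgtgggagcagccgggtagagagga
Rpl35, chr2:39005112-39005171, minus strand: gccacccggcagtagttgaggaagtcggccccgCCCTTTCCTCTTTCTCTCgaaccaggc
Rplp2, chr7:141447611-141447670, plus strand: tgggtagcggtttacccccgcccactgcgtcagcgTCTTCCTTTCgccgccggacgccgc
Rps10, chr17:27635225-27635284, minus strand: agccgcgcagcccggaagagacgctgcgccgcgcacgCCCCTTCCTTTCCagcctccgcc
Rps18, chr17:33955646-33955705, minus strand: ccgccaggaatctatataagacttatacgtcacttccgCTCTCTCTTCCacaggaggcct
Rps27l, chr9:66946046-66946105, plus strand: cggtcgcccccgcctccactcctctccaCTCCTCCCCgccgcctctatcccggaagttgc
Rpl39l, chr16:10170188-10170247, plus strand: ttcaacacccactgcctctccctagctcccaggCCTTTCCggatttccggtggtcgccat
Rpl37a, chr1:72711220-72711279, plus strand: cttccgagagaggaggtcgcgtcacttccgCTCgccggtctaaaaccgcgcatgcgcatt

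The run was 18 bases in Rpl35, 14 in Rpl4, 13 in Rps10, 11 in Rps18 and 10 in Rplp2, against 7 in Rpl39l and 3 in Rpl37a. Rps27l, a paralog of Rps27, has 2 annotated starts, and the first, shown here, has a run of 9 and the second a run of 4. Runs of at least 8 bases were found at 19 of the 46 member promoters, which is 41.3%, against 14% of all 32851 promoters of the same length. The share was 38.5% (10 of 26) for the large subunit and 45.0% (9 of 20) for the small subunit. The annotated start base itself was a C at 28.3% of member promoters and 16.3% of all.

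Other exact motifs were counted on both strands of the 300 bases from 250 before to 50 after the start. The letters CCGGAAG, the core that ETS factors such as GABP bind, stood in 19 of 46 member promoters (41.3%) and in 8.86% of all. AAGATGGC, the core of the YY1 motif, stood in 3 (6.52%) against 2.75% of all, and TATAAA in 5 (10.9%) against 13.6%. The closing AAG of the ETS letters can be the opening AAG of the YY1 letters. A match is only a match of letters in this window and names no bound site.

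As deposited, both subunits lay higher in mice 1 and 2 than in mice 3 and 4. In each mouse the deviation of a gene is its log2 signal minus the mean of the other 3 mice. Over the 24 large subunit genes the median deviation was 0.10, 0.12, -0.08 and -0.12 in mice 1 to 4. A deviation above 0, called here above the other mice, was found in 17, 17, 8 and 8 genes. Over the 20 small subunit genes it was 0.10, 0.13, -0.13 and -0.13, with 14, 15, 5 and 5 genes above. Of all 22626 probe sets other than controls, 45.6%, 57.2%, 58.6% and 42.4% were above the other mice in mice 1 to 4. Genes are not replicates and each mouse was measured once, so these medians are a description with no test.

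The array medians themselves differed, so the deviations were also taken relative to all probe sets. Over all probe sets the median deviation was -0.04, 0.06, 0.09 and -0.07. Relative to it, the large subunit stood at 0.14, 0.05, -0.17 and -0.06, and the small subunit at 0.13, 0.07, -0.22 and -0.06. The widest separation relative to all probe sets was therefore between mouse 1 and mouse 3. With the arrays shifted to the same median, the deviation in mouse 4 was 0.018 for the large and 0.015 for the small subunit. The sign in that mouse thus turns with the scaling, whereas that in mice 1, 2 and 3 did not. Mouse 2 then stood at only 0.024 and 0.039, close to mouse 4, with 26 genes above the other mice against 25 in mouse 4. Mouse 1 stood at 0.17 and 0.16 and mouse 3 at -0.20 and -0.25. The separation of mouse 2 from mouse 4 thus depends on the scaling.

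The medians of the subunits had the same sign in each mouse. The large minus small difference of the medians was 0.0060, -0.015, 0.050 and 0.0032 in mice 1 to 4, and no test of it was made. With plain probe sets, whose identifiers end in _at alone, it was 0.18, -0.054, 0.091 and -0.12. The median SD between mice of single genes was 0.159 for the large and 0.163 for the small subunit. Mouse 2 held the highest value in 8 genes of each subunit, and mouse 1 in 8 of the large and 7 of the small. The lowest value was in mouse 3 or 4 in 17 of the 24 large and 17 of the 20 small subunit genes. Of all 22626 probe sets, 6665 had their highest value in mouse 2 and 4452 in mouse 1. Their lowest value was in mouse 3 for 4708 and in mouse 4 for 7140. Between pairs of mice, 31 of 44 genes were higher in mouse 1 than in mouse 3 and 34 higher in mouse 1 than in mouse 4. Mouse 2 gave 31 and 34 of 44 against the same mice, whereas 17 were higher in mouse 1 than in mouse 2 and 19 higher in mouse 3 than in mouse 4. Such counts were not made over all probe sets, for which only median differences between pairs are given. The median difference of mouse 1 minus mouse 3 was 0.14 over the members and -0.09 over all probe sets. For mouse 1 minus mouse 4 these were 0.20 and 0.02, and for mouse 2 minus mouse 3 they were 0.12 and -0.01. Mouse 2 minus mouse 4 gave 0.18 and 0.11, so mouse 2 was above mouse 4 over all probe sets too. Mouse 1 minus mouse 2 gave -0.07 and -0.08, and mouse 3 minus mouse 4 gave -0.01 and 0.12.

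**Figure D1:**
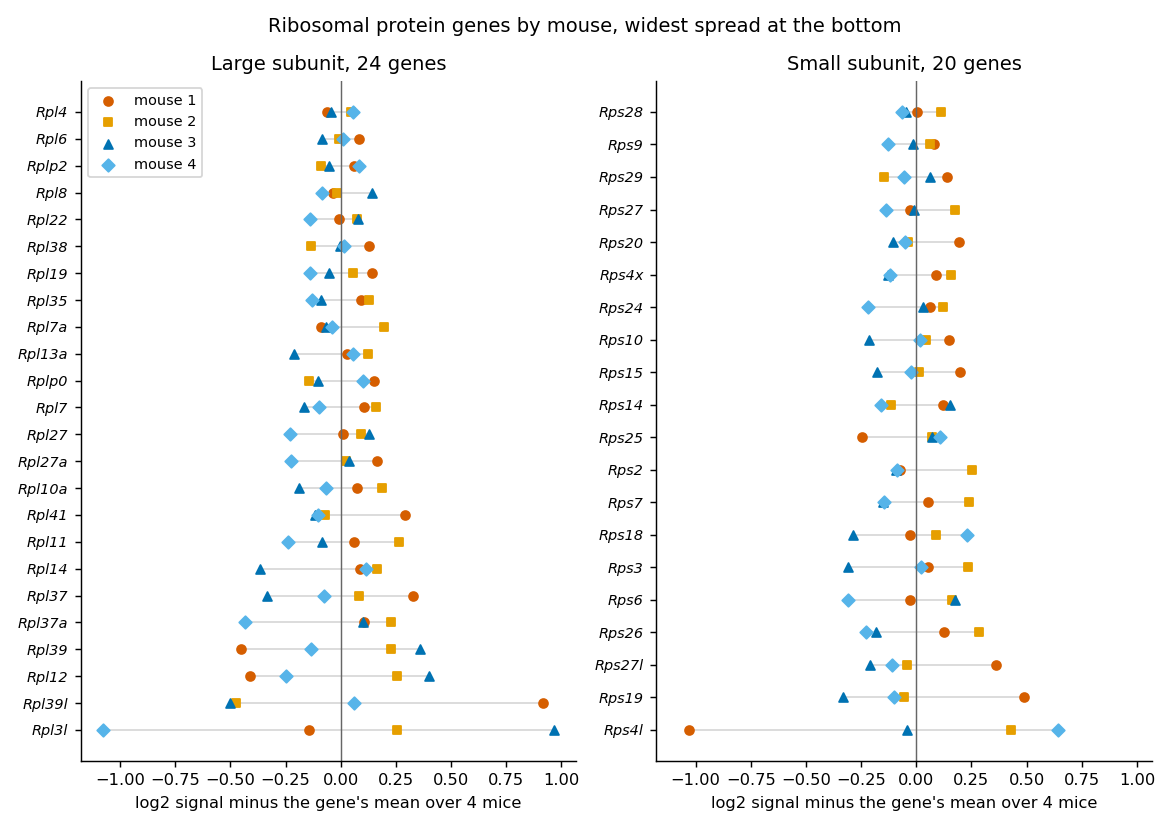
Each row is 1 ribosomal protein gene and each point 1 mouse, plotted as log2 signal minus the mean of the gene over the 4 mice, for 24 large subunit genes (left) and 20 small subunit genes (right), with the smallest SD at the top. Mice 1 and 2 lie to the right in most genes, and Rpl3l, Rpl39l and Rps4l span the widest ranges.

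The kind of probe set moved with this order. An identifier ending in _x_at marks a probe set with probes that may bind other transcripts, and _a_at marks one that reads several transcripts of a gene or family. Ribosomal proteins have many processed pseudogenes, and how far these copies share signal is uncertain. Over the 40 _x_at probe sets of the 44 genes the median deviation was 0.20, 0.09, -0.14 and -0.12, with 35 of 40 above the other mice in mouse 1. Over the 26 plain _at probe sets it was -0.03, 0.19, 0.02 and -0.14, with 12 of 26 above in mouse 1. Over the 26 _a_at probe sets it was 0.125, 0.01, -0.16 and -0.10, with 21 of 26 above in mouse 1. The median mean level was 12.54 for the _x_at sets, 12.66 for the _a_at sets and 7.96 for the plain sets. Probe kind thus went with level, and the part of each was not tested. When plain sets alone were used, 22 genes were left, the small subunit median in mouse 1 was -0.11 and the large subunit median in mouse 3 was 0.075, both opposite in sign to the values over all kinds. Mouse 2 was then above the other mice in 18 of 22 genes and mouse 1 in 10 of 22.

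Probe sets that the choice of 1 per gene left out also had mouse 1 above and mice 3 and 4 below, whereas mouse 2 lay near 0. Over the 50 other probe sets of these genes the median deviation was 0.26, 0.02, -0.13 and -0.11, with 38 of 50 above in mouse 1 and 17 of 50 in each of mice 3 and 4. Over the 102 ribosomal protein probe sets with several symbols it was 0.15, 0.04, -0.14 and -0.08, with 79, 63, 27 and 33 above, and 79.4% of these have identifiers ending in _a_at, _s_at or _x_at. The 4399 probe sets of any gene at the level of the middle 50% of members (mean log2 10.18 to 13.53) had medians of -0.01, -0.01, -0.00 and 0.02. Among them, the 425 _x_at sets had 0.05, -0.01, -0.04 and 0.01, with 57.2% above in mouse 1.

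Control and marker probe sets also differed between the mice. The mean over the 3 control probe sets for 18S ribosomal RNA was 9.95, 8.98, 8.75 and 8.79 log2 in mice 1 to 4. The 3-prime minus 5-prime difference of the Gapdh control was 1.67, 1.94, 2.03 and 2.00, that of the Actb control 1.82, 1.88, 2.12 and 2.02, and that of the Pcx control 4.09, 4.79, 4.71 and 4.79. Mouse 1 was highest for 18S and lowest for these 3 differences, though close to mouse 2 for Actb. All 14 skeletal muscle markers lay below the mean of the other mice in mouse 1, and 13 had their lowest value there. Their summed signal was 1019 in mouse 1 and 7325 to 10650 in the others. All 10 exocrine pancreas markers measured lay above in mouse 2, where the sum was 7469 against 2050 to 3291, and no marker of either list was at 0. The 10 hepatocyte markers measured had a summed signal of 417400 to 469600 and none below 16420, so markers of the labelled tissue were present in every mouse. Macrophage markers (11 measured) had median deviations of -0.14, -0.20, 0.22 and 0.16, and lymphocyte markers (10) of 0.26, 0.31, 0.02 and -0.48. Stellate cell markers (10) had -0.24, -0.11, 0.23 and 0.09, and bile duct markers (7) had -0.63, 0.59, 0.23 and 0.39. For adipocyte markers (6) they were -0.27, 0.91, -0.20 and -0.22, and for erythroid markers (5) 0.14, -0.03, -0.21 and -0.07. Some lymphocyte, bile duct, adipocyte and erythroid signals were under 64. The part of any of these in the ribosomal protein values was not tested. Fewer cells of a type and less RNA per cell cannot be told apart in such bulk samples.

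**Figure D2:**
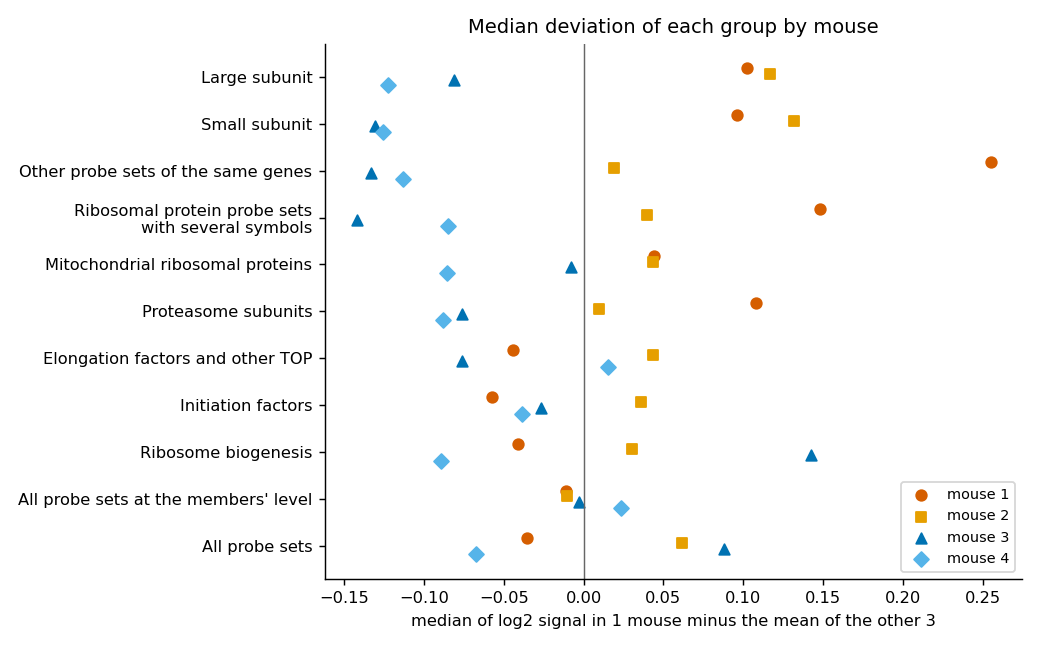
Each point is 1 mouse and gives the median over a gene group of its log2 signal there less the average of the other mice. The subunits hold mice 1 and 2 at 0.10 to 0.13 and mice 3 and 4 at -0.13 to -0.08, whereas over all probe sets mouse 3 is the highest at 0.09.

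No ribosomal protein gene passed a test of its spread between mice. The variance of every probe set was tested with limma against a prior that follows mean level. With Benjamini-Hochberg adjustment over all probe sets, 0 of 22626 had excess spread, which is 0%, and 839 had an unadjusted p under 0.05 (3.71%). Of the 44 members, 0 passed and 1, Rps4l, had an unadjusted p under 0.05. The lower tail of the same test called 0 of 22626, again 0%, with 1221 under an unadjusted p of 0.05 (5.40%) and 0 of the 44 members among them. With 4 arrays the 95% interval of an SD reaches from 0.566 to 3.73 times the estimate, which limits what either tail can call.

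Relative to the prior SD at the same level, the median spread was 0.948 for the large subunit and 1.10 for the small subunit, against 0.966 over all probe sets. It was below 1 in 13 of 24 large and 8 of 20 small subunit genes. The plain median SD of the members, 0.161 log2, was lower than the 0.297 of all probe sets but close to the 0.166 of probe sets at the members' level. Above a mean log2 of 14, the 7 members had a median SD of 0.146 against 0.115 for all, and from 12 to 14 the 20 members had 0.148 against 0.150. From 10 to 12 it was 0.179 for 8 members against 0.175, from 8 to 10 it was 0.322 for 6 against 0.231, and up to 8 it was 0.665 for 3 against 0.557. The members' median SD was thus close to that of all probe sets from 10 to 14 and above it in the other bins, with 3 to 20 members in a bin.

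**Figure D3:**
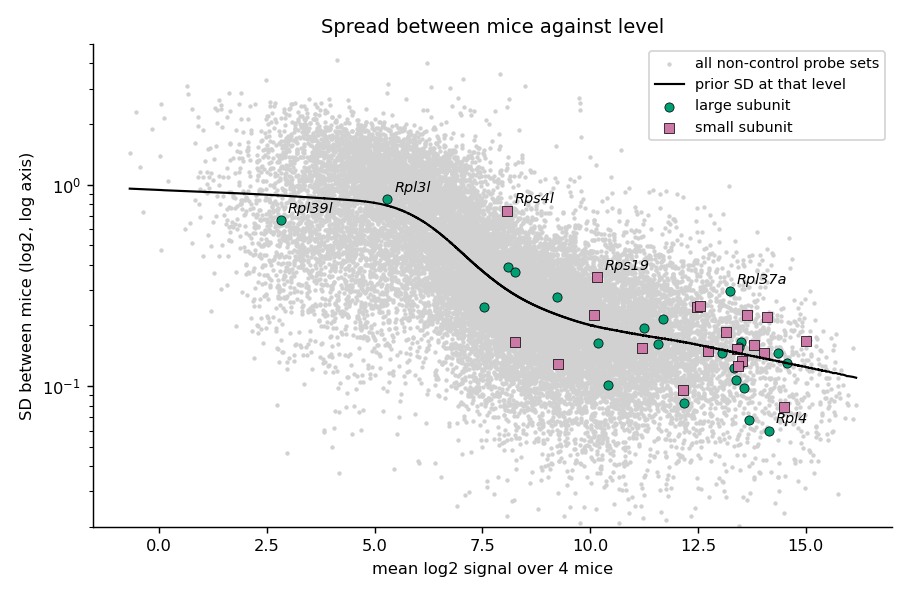
SD between the 4 mice (log2, on a log axis) against mean log2 signal, with all probe sets other than controls in grey, the prior SD as a line, large subunit genes as circles and small subunit genes as squares. Members lie on both sides of the line, with Rpl4 far under it at an SD of 0.06 and Rps4l above it at 0.74.

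Among the large subunit genes, the most even as deposited were Rpl4, Rpl6 and Rplp2. Rpl4, whose long loop lines the peptide exit tunnel, measured 14.09, 14.19, 14.10 and 14.20 log2 in mice 1 to 4, an SD of 0.06. Its highest and lowest mice differed by 1.08-fold, the narrowest range among the 44 genes. Rpl6 measured 13.76, 13.67, 13.59 and 13.68, a 1.12-fold range. The stalk proteins Rplp0 and Rplp2, which recruit the elongation factors to the ribosome, both set mouse 4 with mouse 1. Rplp2 measured 12.23, 12.08, 12.12 and 12.25, and Rplp0 13.21, 12.92, 12.96 and 13.16, with SDs of 0.08 and 0.15. Mice 1 and 4 were the higher and mice 2 and 3 the lower for both. With the arrays shifted to the same median, the SD was 0.12 for Rpl4, 0.15 for Rpl6 and 0.17 for Rplp2. That of Rpl27 fell from 0.16 to 0.084, so the ranking by evenness depends on the scaling. Rplp1 was not analysed here.

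Rpl3l, a paralog of Rpl3 made mainly in striated muscle, had the widest range of deposited values in the large subunit. Its values were 5.15, 5.55, 6.26 and 4.22, an SD of 0.85 and a 4.12-fold range, at 1.08 times the prior SD of its low level. Of these signals, those of mice 1, 2 and 4 lie under a linear signal of 64, where log2 values are noisy, and with such signals raised to 64 the SD was 0.13. As deposited, mouse 4 was the lowest and mouse 3 the highest, an order that rests on those noisy signals. The skeletal muscle markers had their lowest summed signal in mouse 1, and their part in the Rpl3l values was not tested. Rpl39l, a paralog of Rpl39 known from the testis, measured 3.74, 2.35, 2.32 and 2.89. All 4 of its signals lie under 64, so no spread is left with that floor, and its relative spread as deposited was 0.753.

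Rpl12, at the base of the stalk, and Rpl39, a small protein of the exit tunnel, both had mouse 1 lowest and mouse 3 highest. Rpl12 measured 7.67, 8.34, 8.48 and 7.84, an SD of 0.39. Rpl39 measured 7.81, 8.49, 8.62 and 8.12, an SD of 0.37. Each spanned 1.75-fold and is read by a single plain _at probe set. Their limma adjusted p for excess spread was 0.977.

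Rpl37a, a zinc-binding protein, was low in mouse 4 on each of its 3 probe sets. These measured 13.34, 13.46, 13.33 and 12.80, then 11.91, 11.44, 11.51 and 11.04, then 8.80, 8.996, 8.50 and 8.22. The highest mouse was mouse 2 on the brightest and the dimmest and mouse 1 on the other. Rpl7 had mouse 3 as the lowest on each of 3 probe sets, at 13.29, 11.89 and 11.30, while the other mice ran from 13.36 to 13.62, from 12.36 to 12.60 and from 11.59 to 11.88. Rpl41, the smallest of the ribosomal proteins, measured 11.54, 11.18, 11.14 and 11.15, with mouse 1 apart. Rpl13a measured 14.40, 14.49, 14.16 and 14.42, Rpl27 measured 11.58, 11.66, 11.70 and 11.34, and Rpl35 measured 13.58, 13.61, 13.40 and 13.36. Their lowest mouse on these chosen sets was mouse 3, mouse 4 and mouse 4, respectively, and no 2 of the 3 had the same order of mice. The other probe sets of Rpl27 put mouse 3 lowest instead, at 11.06 and 10.36. Of the other probe sets, 1 of 3 for Rpl13a and 1 of 5 for Rpl35 had the same lowest mouse as the chosen set.

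The remaining large subunit genes each spanned 1.16-fold to 1.58-fold. Rpl10a, of the L1 stalk, measured 13.57, 13.69, 13.31 and 13.43. Rpl11, which also binds the p53 regulator Mdm2, measured 11.76, 11.96, 11.61 and 11.45, and Rpl7a measured 14.49, 14.77, 14.51 and 14.54. Mouse 2 was the highest for these 3 genes. Rpl37 measured 9.56, 9.31, 8.90 and 9.16, Rpl19 measured 13.48, 13.39, 13.28 and 13.20, and Rpl27a measured 10.35, 10.21, 10.23 and 9.96. Rpl38, known for its part in the translation of Hox mRNAs, measured 13.52, 13.26, 13.39 and 13.41, so that mouse 1 was the highest in each of these 4. Rpl8, next to the peptidyl transferase centre, measured 13.52, 13.54, 13.70 and 13.47, with mouse 3 highest. Rpl22 measured 10.42, 10.50, 10.50 and 10.29, with mice 2 and 3 together at the top, and Rpl14 measured 7.63, 7.70, 7.17 and 7.66, with mouse 3 alone at the low end.

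Rps4l had the widest spread of the small subunit and was low in mouse 1. It is named as a paralog of Rps4x, and RefSeq annotates it as a transcribed pseudogene, the only member that is not protein coding there. Its values were 7.05, 8.51, 8.04 and 8.72, an SD of 0.74 and a 3.18-fold range. This was 2.48 times the prior SD, and limma gave an unadjusted p of 0.042 and an adjusted p of 0.977 for excess spread. The skeletal muscle markers, with a summed signal of 1019, 10650, 7325 and 9810, were low in the same mouse, and their part in the Rps4l values was not tested. Rps4x, the X-linked protein of the small subunit, had mouse 1 near the top instead, at 14.13, 14.19, 13.91 and 13.91.

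Rps19 and Rps27l were highest in mouse 1. Rps19, needed to mature the small subunit and mutated in Diamond-Blackfan anaemia, measured 10.65, 10.10, 9.83 and 10.06, an SD of 0.35 and a 1.76-fold range. Rps27l, known as a p53 target, measured 12.90, 12.50, 12.33 and 12.43 on its chosen probe set. The others gave 12.90, 12.44, 12.08 and 12.41, and 11.35, 11.18, 10.67 and 10.81, so all 3 put mouse 1 highest and mouse 3 lowest. Rps27 itself, a zinc finger protein, measured 9.22, 9.42, 9.24 and 9.11, with mouse 2 highest. Rps26, at the mRNA exit channel, measured 12.61, 12.77, 12.30 and 12.26, and mice 1 and 2 lay above mice 3 and 4 with no overlap.

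On the chosen probe sets as deposited, the most even small subunit genes were Rps28, Rps9 and Rps29. Rps28 measured 14.51, 14.61, 14.45 and 14.44, an SD of 0.08, and Rps9, near the mRNA entry, 12.23, 12.22, 12.14 and 12.02, an SD of 0.10. Rps29, a zinc finger protein, measured 13.58, 13.29, 13.50 and 13.38, an SD of 0.13. Their highest-to-lowest folds were 1.13, 1.16 and 1.22. The other probe sets of Rps29 had SDs of 0.15 and 0.25. Rps10 and Rps20, both ubiquitinated on stalled ribosomes, had mouse 1 highest and mouse 3 lowest, at 13.56, 13.46, 13.20 and 13.43 for Rps10 and 13.71, 13.48, 13.41 and 13.46 for Rps20. Rps24 measured 12.80, 12.86, 12.77 and 12.52, with mouse 4 lowest.

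For Rps18, of the head of the subunit, as for other genes, the order depended on the probe set. The chosen set of Rps18 gave 14.07, 14.19, 13.81 and 14.33, whereas the next gave 13.80, 14.41, 14.19 and 13.62. Mouse 4 was thus highest on the chosen set and lowest on the next. A single other probe set of Rps10 spread widely, at 11.55, 10.80, 10.002 and 11.01, an SD of 0.64 against 0.15 on the chosen set. Over all genes, 18 of the 50 other probe sets (36%) had the same highest mouse as the chosen set of their gene and 17 (34%) the same lowest mouse.

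The remaining small subunit genes spanned 1.24-fold to 1.46-fold. Rps2 measured 14.93, 15.25, 14.91 and 14.91, Rps3, of the mRNA entry channel, 13.68, 13.86, 13.32 and 13.65, and Rps7 13.20, 13.39, 13.00 and 13.00. Mouse 2 was highest in all of these. Rps6, the ribosomal substrate of S6 kinase, measured 10.07, 10.26, 10.27 and 9.79, and Rps15, which reaches to the decoding site, 11.39, 11.20, 11.01 and 11.17. Rps14, of the platform, measured 13.92, 13.68, 13.95 and 13.64. Rps25, required for initiation at some viral RNAs, measured 8.02, 8.34, 8.34 and 8.37, with mouse 1 alone at the low end.

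A further test asked whether the probe sets of a gene share a difference between mice, using the additive model of probe set and mouse with a limma-moderated residual. It could be run for 4956 genes with at least 2 probe sets, of which 17 passed after Benjamini-Hochberg adjustment, which is 0.343%, and 442 had an unadjusted p under 0.05 (8.92%). Among the members, 21 could be tested, 0 passed and 7 had an unadjusted p under 0.05. Rps27l came closest, with an adjusted p of 0.0517 and an F of 16.9, followed by Rpl37a at 0.175 and Rpl7 at 0.263. The other 4 were Rps29, Rps7, Rpl35 and Rpl41. The call of Rps27l turns with the settings, at an adjusted p of 0.0167 after the shift to equal array medians, 0.395 without mouse 3 and 0.651 without mouse 1. Probe sets of a gene share the RNA and the array, so the test does not tell animal from array.

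**Figure D4:**
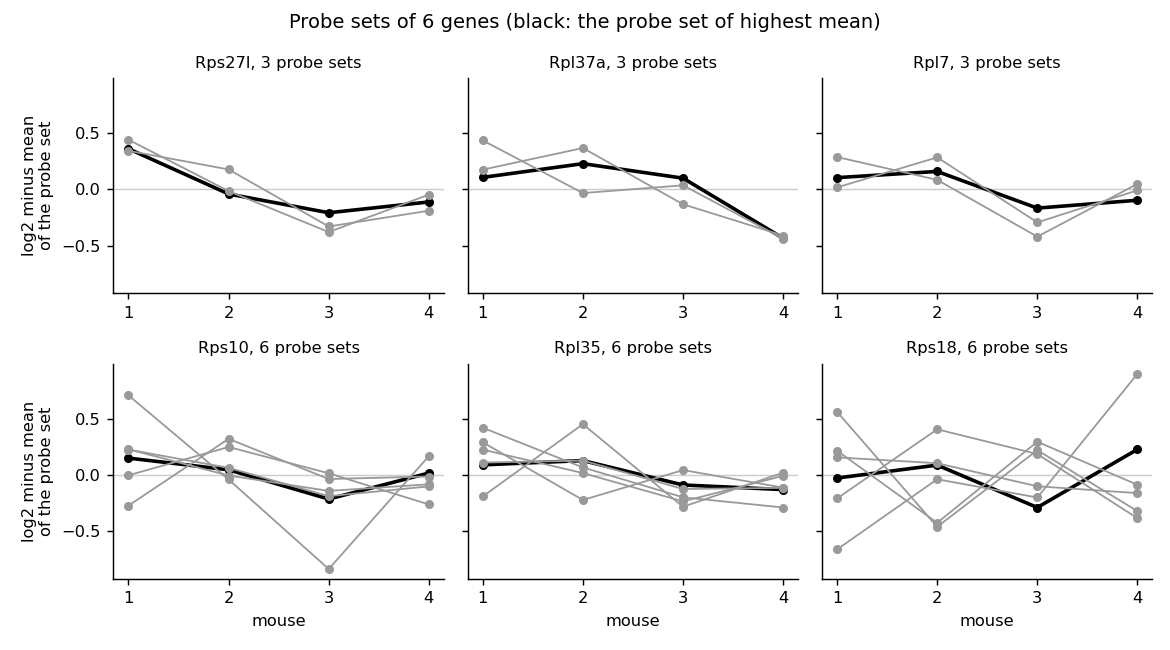
Log2 signal minus the mean of the probe set (vertical axis) in mice 1 to 4 (horizontal axis, which has no order) for every probe set of 6 genes, with the chosen probe set in black and the others in grey. The 3 probe sets of Rps27l run together and all put mouse 1 highest, whereas the 6 of Rps18 cross.

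The order of mice in the subunits was set beside other genes of protein synthesis and turnover. Of the cytosolic ribosomal proteins outside the naming rule, 5 of 8 were measured, with medians of 0.14, 0.14, -0.15 and -0.19. The most variable was Rpl22l1, a paralog of Rpl22, at 10.65, 10.21, 9.68 and 9.87, and the most even Rps3a1, at 13.19, 13.11, 12.98 and 13.08. Proteasome subunits (38 genes) had 0.11, 0.01, -0.08 and -0.09, with 28, 20, 14 and 7 above the other mice. Their extremes were Psmd6, of the lid, with an SD of 0.03, and Psmb10, an immunoproteasome subunit, with 0.49. Mitochondrial ribosomal proteins (71 genes) had 0.04, 0.04, -0.01 and -0.09, with 44, 38, 35 and 23 above, and ran from Mrps23 at an SD of 0.01 to Mrpl52 at 0.46.

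The medians of other translation genes put the mice in other orders, and the difference from the ribosomal proteins was not tested. Elongation factors and other TOP mRNAs (12 of 13 measured) had medians of -0.04, 0.04, -0.08 and 0.02, with 2, 7, 5 and 8 above, from Eif3f at an SD of 0.06 to Eif4b at 0.21. Initiation factors (22 of 27) had -0.06, 0.04, -0.03 and -0.04, from Eif3i at 0.04 to Eif2b2 at 0.37. Ribosome biogenesis factors (30 of 32) had -0.04, 0.03, 0.14 and -0.09, from Wdr12 at 0.04 to Nop58 at 0.50. RNA polymerase I genes (12 of 15), which make the ribosomal RNA precursor, had -0.02, 0.14, 0.10 and -0.20, from Polr1c at 0.08 to Taf1d at 0.56.

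Regulators of TOP mRNAs and the mTOR pathway were measured for 15 of 18 genes, with medians of -0.07, 0.03, 0.09 and -0.05. Larp1, which binds the TOP tract, measured 11.85, 11.86, 12.10 and 11.89. Myc, which drives ribosomal protein and biogenesis genes, measured 7.70, 9.44, 9.33 and 9.24, low in mouse 1. Its part in the ribosomal protein values was not tested. Ddit4, an inhibitor of mTOR complex 1, had the widest spread, at 9.77, 10.44, 11.66 and 8.65, and Rheb, its activator, the smallest, with an SD of 0.07. Limma's adjusted p for excess spread was 0.977 for Myc and Ddit4, and 0 genes of the lists of protein synthesis, its regulators and the proteasome passed any of the tests. Of the cell type markers, Ttn of skeletal muscle passed the test of shared differences, with a limma adjusted p of 0.0346. Rps6kb1 was not analysed here.

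The members were also split by their promoter. The 19 genes with a C and T run of at least 8 at a start had medians of 0.09, 0.12, -0.07 and -0.15, with 12, 16, 5 and 8 above the other mice. The 19 with a promoter but no such run had 0.10, 0.15, -0.14 and -0.13, with 15, 14, 5 and 4 above. Both sets followed the order of the subunits, and their difference was not tested.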

How the data were processed

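Liver RNA of 4 samples was measured on 1-colour arrays. RiboAmp amplified the RNA from 2 ug before biotin labelling, per the labels' protocols. The authors deposited linear signal intensities, 1 for each probe set on an array. RMA is named in the submitters' processing notes, with no version, but linear values down to 0.1 with a fixed trimmed mean are not usual RMA output, so how low signals were made is uncertain. Trimmed of 2% at each end, the arrays had means of 1000.4 to 1000.5, and array medians ran from 267 to 305. The sources used here do not give the background correction. RiboAmp primes from poly(A), which favours the 3-prime ends of mRNAs. The number of arrays limits the precision.

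The log2 of each intensity was used, without pseudocount or further scaling, and 64 control probe sets were left out. Symbols came from the platform annotation (20380 probe sets with 1 symbol, 691 with several, 1555 with none). All 44 members were found in RefSeq by Entrez identifier and 0 symbols changed. Spread was tested with limma 3.58.1 in R 4.3.3 (squeezeVar, robust, trend on level; both tails), and shared differences with an additive model and moderated residuals. P-values were Benjamini-Hochberg adjusted over all features, at 0.05. In simulated data with seeded differences these tests found most of the largest and few or none of the smallest, so a count of 0 members does not show that small differences are absent. Levels of different probe sets are not compared.

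Members and lists were chosen with earlier results of these data known. Genes named in full were, per subunit, the 4 of largest and 3 of smallest SD, symbols ending in l or x, Rplp0 to Rplp2 and genes with at least 3 probe sets. In comparison lists these were the genes of largest and smallest SD, with Larp1, Myc and Rps6kb1. The remaining members are given too, so that each is accounted for. Alternatives were 2 other scalings, a floor of 64, plain probe sets only, other priors, a level filter, means over probe sets and leaving out each mouse.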

Additional observations from a re-analysis of the deposited data

Results flagged for a closer look

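Of 46 sets of 4 values examined (the 44 genes and the medians of both subunits), 4 had 1 mouse far from the others. This is 8.70%, and chance gives about 1 in 20 for independent sets. The sets share the 4 arrays and the share over all probe sets was not computed, so the count is not read as an excess in these genes. The gap to the nearest other mouse, as a share of the whole range, was 0.946 for Rps2, where mouse 2 lay above the rest. It was 0.896 for Rps25, with mouse 1 below, 0.888 for Rpl41, with mouse 1 above, and 0.857 for Rpl14, a large subunit protein that measured 7.63, 7.70, 7.17 and 7.66, with mouse 3 below. The mouse that stood apart was thus mouse 1 in both Rps25 and Rpl41, in opposite directions. Rps2, Rpl14 and Rps25 each have a single probe set, so no second reading was at hand. For Rpl41 the second probe set also put mouse 1 highest, at 10.27 against 10.002, 9.72 and 9.83, whereas the other 2 put mouse 3 highest, at 7.41 and 6.57.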

How the results depend on the processing

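No paired analysis was possible because the labels give 1 group. The count of members past either spread test stayed at 0 under every alternative run. The count of members past the test of shared differences was 1, Rps27l, with arrays shifted to the same median, with signals under 64 raised to 64, with a prior that is not robust and among the probe sets left by the filter on mean level. The count over all genes, 17, was 55, 47 and 44 under the first, second and last of these, 0 with plain probe sets, 0 with a prior without trend, and 0 to 4 when a mouse was left out (0 without mouse 3). Over all probe sets, 34 passed the low spread test with signals under 64 raised to 64, and 6 the excess spread test under the level filter. Of 72 deviations of a subunit under an alternative, 4 changed sign. They were the mouse 4 values after the median shift (0.018 for the large subunit and 0.015 for the small) and, with plain probe sets, -0.11 for the small subunit in mouse 1 and 0.075 for the large in mouse 3. Large minus small was then 0.18, -0.054, 0.091 and -0.12 in mice 1 to 4, and -0.038 in mouse 1 with means over probe sets. Leaving out a mouse gave -0.018 to -0.0015 for mouse 1, -0.068 to -0.0033 for mouse 2, -0.0017 to 0.074 for mouse 3 and -0.044 to -0.0013 for mouse 4. Without mouse 3, mouse 4 was above the others in 7 of 44 genes. Among SDs of named genes, that of Rpl3l went from 0.85 to 0.13 with signals under 64 raised to 64, and those of Rpl41 and Rps20 from 0.20 and 0.13 to 0.024 and 0.036 without mouse 1. On plain probe sets, which are dimmer for these genes, the SDs of Rpl41 and Rps20 were instead 0.84 and 0.69. Those of Rpl35 and Rps24 then rose from 0.13 and 0.15 to 0.33 and 0.34. With the arrays shifted to the same median, those of Rpl6 and Rplp2 rose from 0.068 and 0.083 to 0.15 and 0.17. The cause of these differences was not tested.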
